A study of Danio rerio with 12 samples.

Results

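The genes described here are the kinases, transcription factors and targets of the integrated stress response, measured by RNA-Seq in zebrafish embryos. Members were chosen by name: eif2ak1, eif2ak2, eif2ak3, eif2ak4, atf4a, atf4b, ddit3, trib3, asns and nupr1a were matched by zebrafish symbol to the Ensembl identifiers of the count tables, and a paralog suffix was allowed. The suffix added nupr1b, so 11 of the 25432 genes in the tables were members, and 9 of them passed the filter on low counts together with 15829 genes in all.

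Total RNA came from pools of whole embryos at 1 and 6 hours post fertilization (hpf). Wild-type embryos were of the AB strain. MZznf598 embryos had neither maternal nor zygotic Znf598, a ubiquitin ligase of collided ribosomes, because they were the offspring of parents homozygous for a frameshift deletion in znf598, and 1 such mutant line was used. The 4 groups (wild type and MZznf598, each at 1 hpf and 6 hpf) held 3 libraries each, which gives 12 libraries, and no treatment was applied. The study asked, by western blot at 6 hpf, whether eIF2α was more phosphorylated in MZznf598 embryos, and it reported elevated phosphorylation. These libraries measured the abundance of the mRNAs on either side of that event, not phosphorylation or translation.

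In the integrated stress response, kinases that sense different stresses phosphorylate the α subunit of the initiation factor eIF2. Phosphorylated eIF2 holds back its own exchange factor, eIF2B, so that most mRNAs are initiated less often, whereas a few with upstream open reading frames, such as that of the transcription factor ATF4, are translated more. ATF4 then activates genes for amino acid supply and for the adaptation or death of the cell, and much of this is known from mammalian cells. In the early fish embryo, mRNAs stored in the egg are cleared and the zygotic genome is switched on between the sampled stages, a passage called the maternal-to-zygotic transition (MZT).

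Library totals ran from 7144704 to 12162660 counts. Levels are in CPM, counts scaled to the size of a library, with TMM factors (trimmed mean of M-values) applied to those sizes. A floor of 3 counts, the most that an observed 0 allows, was 0.197 to 0.507 CPM. Floors and counting intervals cover counting error only. The mRNA of znf598 ran from 128 to 142 CPM in wild type and from 3.45 to 3.70 CPM in MZznf598 at 1 hpf, and from 62.6 to 111 CPM and from 8.13 to 10.5 CPM at 6 hpf, with no overlap of the genotypes. The summed level of 5 gastrula markers (tbxta, gsc, noto, sox32 and chrd) was 0.241 to 1.47 CPM at 1 hpf and 1391 to 1583 CPM at 6 hpf. The third wild-type library stood apart at both stages. Its counts differed from those of its replicates by a chi-square per degree of freedom of 21.4 and 21.5 at 1 hpf and of 20.9 and 15.2 at 6 hpf, against 2.71 to 5.50 for all other pairs of replicates. Its summed level of 5 maternal markers was the lowest at 6 hpf (436 CPM, up to 906 CPM in the other libraries of that stage). For the members, znf598 and the pathway genes ern1, eif2b2, gpt2 and cars1, results are therefore also given without both of these libraries where a call differs. For the other genes named below, results of that fit are not given. Nothing in the labels says whether replicates came from separate clutches, so the spread between libraries may be partly technical.

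The levels of the members were first compared between the stages. All 9 members measured changed from 1 to 6 hpf in both genotypes, 5 upward and 4 downward. This is to be read against a background in which 70.4% of all genes tested changed in wild type (36.5% up, 33.9% down) and 70% in MZznf598 (36.3% up, 33.7% down; edgeR quasi-likelihood test, Benjamini-Hochberg adjusted p below 0.01). The mRNAs that rose were those of atf4a, atf4b, ddit3, trib3 and eif2ak2. Those of eif2ak1, eif2ak3, asns and nupr1a fell. For all 9 members the 3 libraries of 1 stage did not overlap the 3 of the other in either genotype, which also held for 77.4% of all genes tested in wild type and for 84.9% in MZznf598. In whole embryos, fewer cells of a type and less RNA per cell cannot be told apart.

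**Figure D1:**
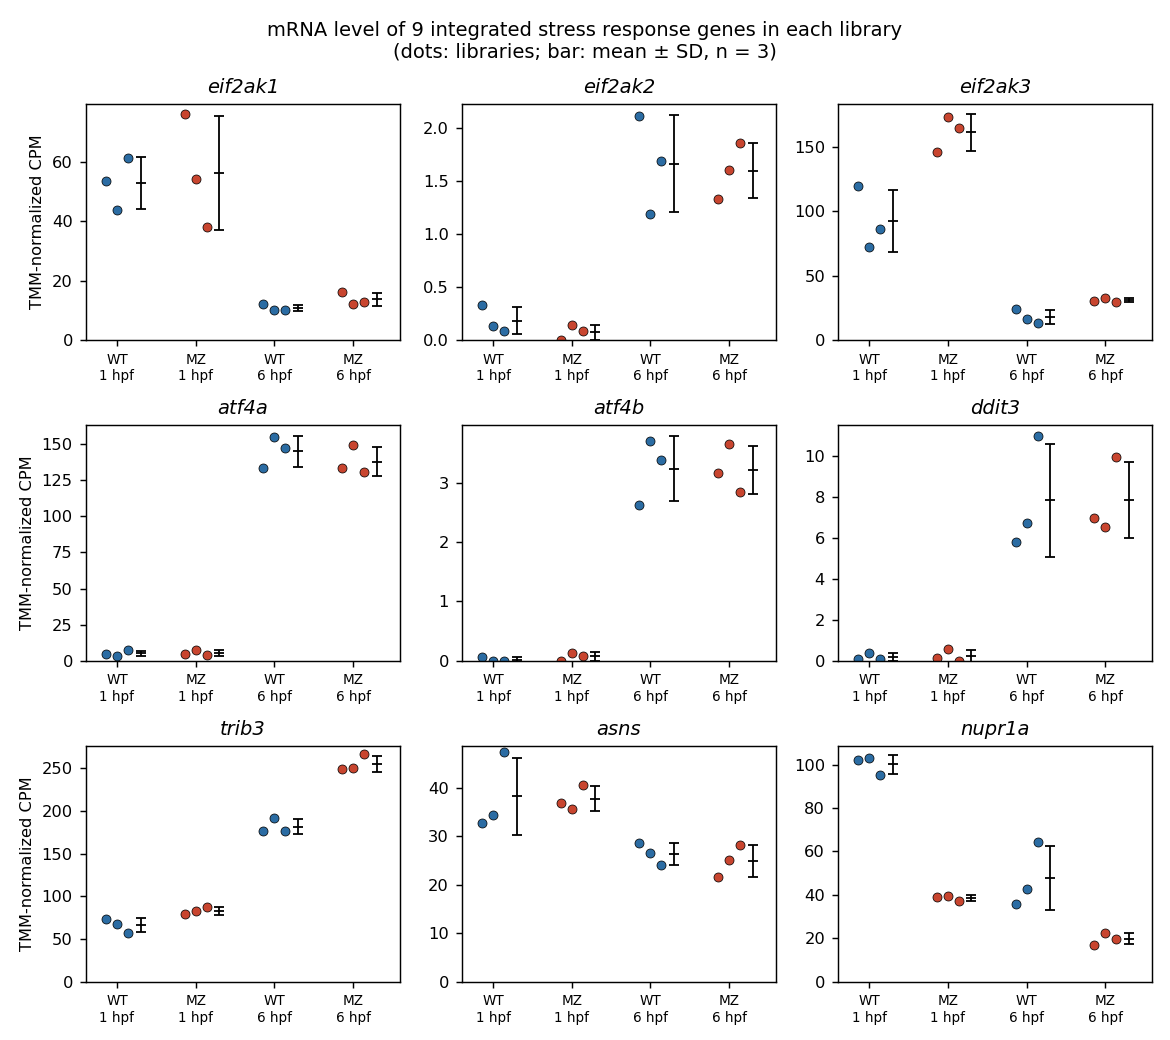
Level of 9 members in each library, in TMM-normalized CPM on a linear axis that starts at 0 and differs between panels. Dots are libraries (blue, wild type; red, MZznf598) and bars are the mean ± SD (n = 3). Both stages are far apart for atf4a and ddit3, while the genotypes separate at both stages for eif2ak3, trib3 and nupr1a.

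Among the kinases, eif2ak1 (ENSDARG00000093182) encodes the kinase known in mammals as HRI, which responds to lack of heme and to mitochondrial stress. In wild type its mRNA was at 53.8, 43.8 and 61.5 CPM at 1 hpf and at 12.1, 10.2 and 10.1 CPM at 6 hpf. In MZznf598 it was at 76.4, 54.3 and 38.0 CPM at 1 hpf and at 16.1, 12.1 and 12.8 CPM at 6 hpf. The 1 hpf libraries of MZznf598 spanned the whole range of the wild-type ones, and at 6 hpf the lowest MZznf598 library lay just below the highest of wild type. From 1 to 6 hpf the mRNA fell 4.89-fold in wild type (log2 fold change -2.29, standard error (SE) 0.24, edgeR adjusted p = 1.02e-06) and 4.12-fold in MZznf598 (log2 fold change -2.04, SE 0.23, edgeR adjusted p = 2.61e-06). Between genotypes the log2 difference was 0.33 at 6 hpf (95% interval -0.22 to 0.89) and 0.09 at 1 hpf (95% interval -0.36 to 0.54), with edgeR adjusted p = 0.512 and 0.928.

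The product of eif2ak3 (ENSDARG00000062139), PERK, lies in the membrane of the endoplasmic reticulum (ER) and responds to unfolded protein there. At 1 hpf its mRNA was at 119, 72.2 and 85.9 CPM in wild type and at 146, 174 and 165 CPM in MZznf598. At 6 hpf it was at 24.1, 16.4 and 13.4 CPM in wild type and at 30.6, 32.4 and 29.8 CPM in MZznf598. All 3 MZznf598 libraries were above all 3 wild-type libraries at each stage, and the wild-type libraries were the more scattered ones. The mRNA fell with the MZT, 5.11-fold in wild type (log2 fold change -2.35, SE 0.21, edgeR adjusted p = 1.99e-07) and 5.22-fold in MZznf598 (log2 fold change -2.38, SE 0.20, edgeR adjusted p = 1.26e-07). The level in MZznf598 was 1.74-fold that of wild type at 1 hpf (log2 0.80, SE 0.18, 95% interval 0.40 to 1.20) and 1.71-fold at 6 hpf (log2 0.77, SE 0.22, 95% interval 0.31 to 1.24). Neither difference passed the threshold of 0.01 (edgeR adjusted p = 0.0161 at 1 hpf and 0.0430 at 6 hpf). DESeq2 called both (adjusted p = 0.00131 and 0.00579). Leaving out the first wild-type library of 1 hpf or that of 6 hpf brought the 1 hpf difference below the threshold (log2 1.03 with edgeR adjusted p = 0.00417, and log2 0.80 with 0.00698), and without the third wild-type libraries of both stages the 6 hpf difference was 0.61 with an adjusted p of 0.179.

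The kinase encoded by eif2ak2 (ENSDARG00000068729) is known in mammals as PKR and binds double-stranded RNA. Its mRNA was scarce. Wild type had 5, 2 and 1 counts at 1 hpf and 16, 9 and 10 counts at 6 hpf. MZznf598 had 0, 2 and 1 counts at 1 hpf and 8, 11 and 13 counts at 6 hpf. Every 6 hpf library had more counts than every 1 hpf library, with the genotypes overlapping at each stage. Pooled over the libraries of a group and scaled by their sizes, the level at 6 hpf was 8.78 times that at 1 hpf in wild type (95% counting interval 4.004 to 21.9) and 21.8 times in MZznf598 (95% counting interval 6.83 to 111), with edgeR adjusted p = 0.000156 and 3.74e-05. These counts leave a wide interval for the genotype difference at 6 hpf, from -1.03 to 0.92 on the log2 scale. Next to eif2ak2 in the gene order of the RefSeq annotation (assembly GRCz12tu) lies pkz, looked at after its values were seen, which encodes a fish kinase akin to PKR with Z-DNA-binding domains. At 6 hpf pkz was at 2.14 ± 0.980 CPM in wild type and at 1.41 ± 0.312 CPM in MZznf598 (n = 3, mean ± SD). Its log2 difference was -0.63 (SE 0.41, edgeR adjusted p = 0.427). Whether the pair shared reads was not tested.

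The kinase that binds uncharged tRNA and stalled ribosomes, GCN2, is encoded by eif2ak4 (ENSDARG00000104276). It was listed at 0 counts in all 12 libraries, where the floor was 0.197 to 0.507 CPM in a library. A listing at 0 throughout was shared by 2431 of the 25432 genes (9.56%), and by 7.65% of the genes with a symbol. In the RefSeq gene order, the adjacent actc1b had 488 counts over the 12 libraries, and arhgap11a, next on that side, had 46639. On the other side, bmf1 had 0. Whether reads of this kinase were counted under another identifier was not tested, so no statement on its mRNA can be made. The gene gcn1, whose product works with GCN2 on ribosomes in yeast and mammals, was also picked after its values were seen. At 1 hpf gcn1 mRNA was at 113, 111 and 175 CPM in wild type and at 137, 143 and 130 CPM in MZznf598. At 6 hpf it was at 249, 281 and 436 CPM in wild type and at 302, 317 and 322 CPM in MZznf598. The genotypes of gcn1 differed by log2 0.04 at 1 hpf (95% interval -0.39 to 0.46) and by log2 -0.04 at 6 hpf (95% interval -0.46 to 0.39). The third wild-type library was the highest at each stage, and the remaining wild-type libraries lay below every MZznf598 library. A fit of gcn1 without the third wild-type libraries is not given, so equal levels in the genotypes cannot be concluded.

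**Figure D2:**
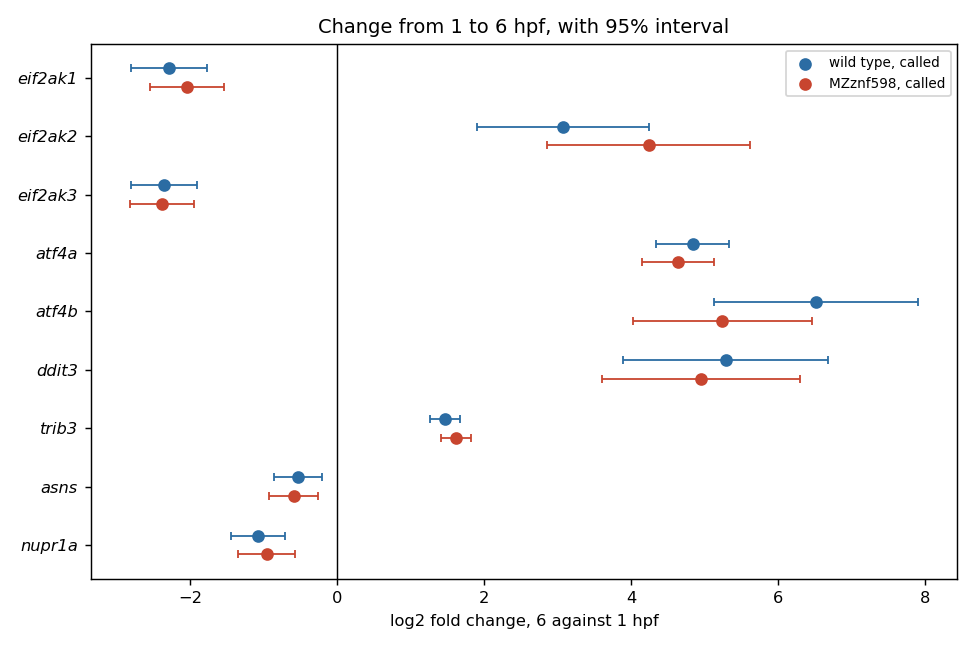
Change from 1 to 6 hpf of 9 members in wild type (blue) and MZznf598 (red), as log2 fold change with its 95% interval. The intervals of atf4b and eif2ak2, which had few counts at 1 hpf, are approximate and can be narrower than counting error alone. Filled dots were called, and all 18 are: atf4b, ddit3, atf4a, eif2ak2 and trib3 lie to the right of 0, and asns, nupr1a, eif2ak1 and eif2ak3 to the left, in both genotypes.

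The transcription factors were low before the MZT and rose across it in both genotypes. ATF4 is a basic leucine zipper factor and the main effector of the pathway in mammals, and zebrafish carry the paralogs atf4a (ENSDARG00000111939) and atf4b (ENSDARG00000038141). The mRNA of atf4a was at 4.60, 3.65 and 7.18 CPM in wild type and at 5.03, 7.54 and 3.93 CPM in MZznf598 at 1 hpf. By 6 hpf it had reached 133, 155 and 147 CPM in wild type and 133, 149 and 131 CPM in MZznf598. The genotypes overlapped at both stages, while no 6 hpf library came near a 1 hpf one. The rise was 28.5-fold in wild type (log2 fold change 4.83, SE 0.23, edgeR adjusted p = 4.10e-10) and 24.8-fold in MZznf598 (log2 fold change 4.63, SE 0.23, edgeR adjusted p = 5.79e-10). At 6 hpf the genotype difference was -0.07 on the log2 scale (SE 0.19, edgeR adjusted p = 0.872), with a 95% interval of -0.47 to 0.33 that leaves out a change of the size seen in eif2ak3. At 1 hpf it was 0.12 (95% interval -0.41 to 0.66).

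The paralog atf4b was nearly absent at 1 hpf. Wild type had 1, 0 and 0 counts at 1 hpf and 20, 28 and 20 counts at 6 hpf. MZznf598 had 0, 2 and 1 counts at 1 hpf and 19, 25 and 20 counts at 6 hpf. Every 6 hpf library held 19 or more counts and no 1 hpf library more than 2. The pooled ratio of 6 to 1 hpf was 137 in wild type (95% counting interval 23.7 to 5471) and 43.7 in MZznf598 (95% counting interval 14.3 to 217), with edgeR adjusted p = 6.09e-07 and 1.46e-06. The mean level at 6 hpf was 3.24 ± 0.550 CPM in wild type and in MZznf598 3.22 ± 0.401 CPM (n = 3, mean ± SD), and the log2 difference was -0.01 (95% interval -0.82 to 0.81, edgeR adjusted p = 0.996).

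The pro-apoptotic factor CHOP, a target and partner of ATF4, is encoded by ddit3 (ENSDARG00000059836). At 1 hpf it had 1, 6 and 1 counts in wild type and 2, 8 and 0 counts in MZznf598. By 6 hpf it stood at 5.79, 6.75 and 11.0 CPM in wild type and at 6.99, 6.56 and 9.98 CPM in MZznf598. The genotypes overlapped at both stages, and replicates were far apart at 1 hpf, where the most counts in a library were 8. The rise from 1 to 6 hpf was 40.2-fold over pooled counts in wild type (95% counting interval 19.9 to 94.6) and 32.1-fold in MZznf598 (95% counting interval 17.0 to 68.4), with edgeR adjusted p = 4.89e-06 and 6.92e-06. At 6 hpf the mean was 7.85 ± 2.77 CPM in wild type and in MZznf598 it was 7.84 ± 1.86 CPM (SD, n = 3). The log2 difference of 0.01 had a 95% interval of -0.97 to 1.00 (edgeR adjusted p = 0.993). Differences of nearly 2-fold in either direction thus lie within the interval, which is not adjusted for the number of genes tested.

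Over the 12 libraries, the genes most like atf4a by Pearson r of log2 CPM were cd82 (0.999), stm (0.998) and cbx3 (0.998). These points share their stage, 6 libraries being at each, and so the r is a description of that step. No such list exists for eif2ak4, which had no counts.

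Among the targets, trib3 (ENSDARG00000016200) encodes a pseudokinase that in mammals is induced by ATF4 and CHOP and holds ATF4 in check. At 1 hpf its mRNA was at 73.6, 67.2 and 57.3 CPM in wild type and at 78.9, 82.8 and 88.1 CPM in MZznf598. The 6 hpf libraries were at 176, 192 and 177 CPM in wild type and at 249.5, 250.2 and 266 CPM in MZznf598. At each stage all 3 MZznf598 libraries were above all 3 wild-type libraries, by a narrow gap at 1 hpf and a wide one at 6 hpf. At 6 hpf trib3 was 1.40-fold higher in MZznf598 (log2 fold change 0.49, SE 0.09, 95% interval 0.29 to 0.69, edgeR adjusted p = 0.00554). At 1 hpf the level was 1.26-fold that of wild type (log2 0.33, SE 0.09, 95% interval 0.13 to 0.54) and missed the threshold (edgeR adjusted p = 0.0456). The genotype differences at the stages were not distinguishable, with an interaction of 0.16 (SE 0.13, edgeR adjusted p = 0.785). The mRNA also rose 2.75-fold from 1 to 6 hpf in wild type and 3.07-fold in MZznf598 (log2 fold changes 1.46 and 1.62, edgeR adjusted p = 8.58e-09 and 3.08e-09).

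The trib3 call at 6 hpf sat close to the threshold. It was lost in 7 of 12 fits that each left out 1 library, with adjusted p up to 0.0460 without the third MZznf598 library of 6 hpf, while the log2 fold change stayed at 0.44 to 0.52. It was also lost with the replicate number as a block (adjusted p = 0.0131) and with library totals alone (0.0171). Those fits called 2.8% and 3.37% of all genes tested at 6 hpf, and the 12 fits without 1 library 1.56% to 5.37%, beside 3.51% in the main fit. Without the third wild-type libraries of both stages the trib3 log2 fold change was 0.47 with an adjusted p of 0.000262.

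The product of nupr1a (ENSDARG00000094300) is a small chromatin-associated stress protein, induced by ATF4 in mammalian cells, and its mRNA went the opposite way. At 1 hpf it was at 102, 103 and 95.2 CPM in wild type and at 39.2, 39.3 and 37.0 CPM in MZznf598. The 6 hpf levels were 35.8, 42.9 and 64.3 CPM in wild type and 17.1, 22.3 and 19.8 CPM in MZznf598. Every MZznf598 library was below every wild-type library of its stage, and the third wild-type library of 6 hpf was the highest of its group. The mRNA was 2.60-fold lower in MZznf598 at 1 hpf (log2 fold change -1.38, SE 0.17, edgeR adjusted p = 0.000187) and 2.40-fold lower at 6 hpf (log2 fold change -1.26, SE 0.18, edgeR adjusted p = 0.000947). The interaction was 0.12 (SE 0.24, edgeR adjusted p = 0.960). From 1 to 6 hpf nupr1a fell 2.11-fold in wild type and 1.95-fold in MZznf598 (log2 fold changes -1.08 and -0.96, edgeR adjusted p = 4.87e-05 and 0.000245). The genotype calls held in all 12 fits without 1 library, with log2 fold changes of -1.44 to -0.99 at 6 hpf. The 6 hpf call was lost when only the 6 libraries of that stage were fitted (log2 fold change -1.27, adjusted p = 0.0121). That fit called 2.36% of all genes tested, beside 3.51% in the main fit.

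The paralog nupr1b (ENSDARG00000094557) had 2 counts in all, 1 in a wild-type library of 1 hpf and 1 in an MZznf598 library of 6 hpf, and was not tested.

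Asparagine synthetase, which makes asparagine from aspartate and glutamine and is a classic ATF4 target, is encoded by asns (ENSDARG00000016375). At 1 hpf its mRNA was at 32.8, 34.5 and 47.5 CPM in wild type and at 36.8, 35.8 and 40.7 CPM in MZznf598. At 6 hpf it was at 28.6, 26.6 and 24.0 CPM in wild type and at 21.6, 25.2 and 28.2 CPM in MZznf598. The genotypes overlapped at both stages, and the third wild-type library was the highest at 1 hpf. The genotype difference at 6 hpf was -0.08 on the log2 scale (SE 0.16, 95% interval -0.42 to 0.27, edgeR adjusted p = 0.842), and at 1 hpf it was -0.02 (95% interval -0.33 to 0.30). From 1 to 6 hpf asns fell 1.44-fold in wild type and 1.51-fold in MZznf598 (log2 fold changes -0.53 and -0.59, edgeR adjusted p = 0.00601 and 0.00316). This small fall depended on the scaling. With relative log expression (RLE) size factors, which put the median of all genes at 0.12 rather than -0.02 in wild type, it was -0.39 and -0.45 and was no longer called (edgeR adjusted p = 0.0300 and 0.0168), as with DESeq2 (adjusted p = 0.0278 and 0.0130). With library totals alone, which put that median at -0.55, it was -1.05 and -1.12 and stayed called. With 1 library left out it was lost in 3 of 12 fits in wild type (adjusted p up to 0.0237, without the third wild-type library of 1 hpf) and in 2 of 12 in MZznf598 (up to 0.0141, without the third MZznf598 library of 1 hpf). In wild type it was also lost when only its 6 libraries were fitted (adjusted p = 0.0290), with the replicates paired within a genotype (log2 fold change -0.51, adjusted p = 0.0127) and without the third libraries of both stages (-0.28, adjusted p = 0.0494).

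The genotypes were then compared over all members. At 6 hpf, trib3 rose and nupr1a fell, so 2 of the 9 members tested were called, where 3.51% of all genes tested were called (1.76% up and 1.75% down by edgeR, adjusted p below 0.01). At 1 hpf, nupr1a alone was called, downward, where 3.83% of all genes tested were called (1.6% up and 2.23% down). The interaction of genotype and stage was called for 0 of the 9 members by edgeR and by DESeq2, with 0 members at an unadjusted p below 0.05. Over all genes tested it was called for 0.449% by edgeR and for 1.76% by DESeq2. The libraries of the genotypes did not overlap for 3 of 9 members at 6 hpf and for 3 of 9 at 1 hpf, namely eif2ak3, trib3 and nupr1a at each stage. Over all genes tested this share was 28% at 6 hpf and 25.8% at 1 hpf. The median log2 difference over the 9 members was -0.01 at 6 hpf and 0.12 at 1 hpf, beside -0.01 and 0.00 over all genes tested. With so few members, and 2 called in opposite directions at 6 hpf, these counts describe single genes and no movement of the group.

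**Figure D3:**
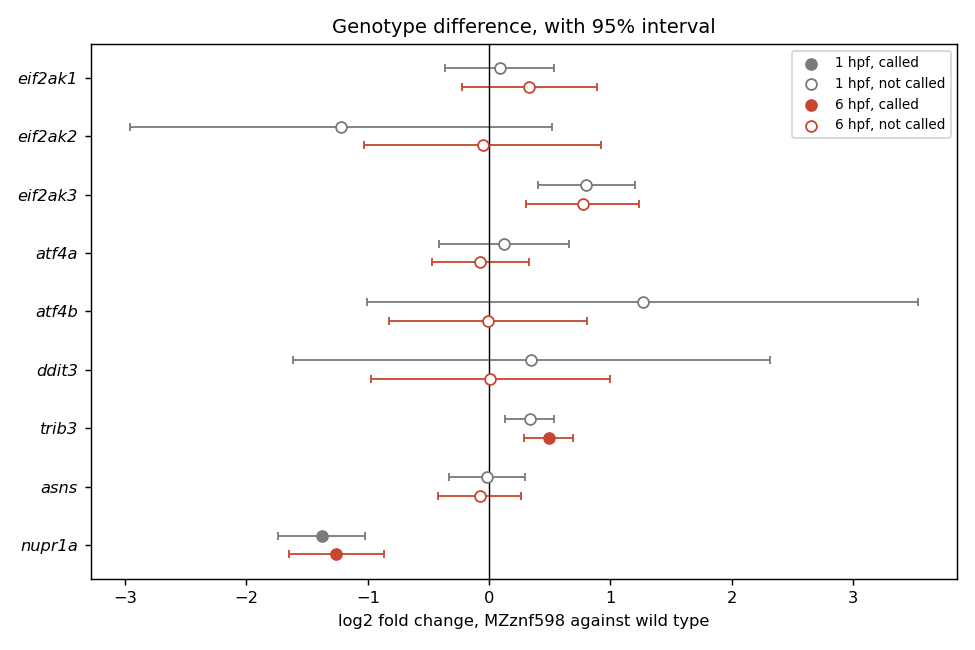
Difference between MZznf598 and wild type at 1 hpf (grey) and 6 hpf (red) for 9 members, as log2 fold change with its 95% interval. Filled dots were called: trib3 at 6 hpf (0.49) and nupr1a at 1 hpf (-1.38) and 6 hpf (-1.26). The widest intervals at 1 hpf belong to eif2ak2, atf4b and ddit3, which had 10 or fewer counts per group there. At so few counts the intervals are approximate and can be too narrow.

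The rest of the pathway was examined in 6 lists with 84 tested genes, searched under 78 names. By edgeR 1 list gene rose and 2 fell at 6 hpf (3.57% called), and 0 rose and 2 fell at 1 hpf (2.38% called), beside 3.51% and 3.83% of all genes tested. At an unadjusted p below 0.05 there were 16 and 19 list genes. The share of all genes at that cut-off was not taken, so such counts, here and below, are not read as a movement of the lists. DESeq2 called 6 list genes at 6 hpf (cars1, dele1, eif2b2, ern1, got1 and gpt2) and 5 at 1 hpf (cars1, dnajc3b, eif2b2, ern1 and prkra). It called 7.02% of all genes tested at 6 hpf and 6.66% at 1 hpf. When only the 6 libraries of 6 hpf were fitted by edgeR, none of the 3 calls at that stage held (adjusted p = 0.0167 for eif2b2, 0.0141 for gpt2 and 0.0130 for cars1), their directions being kept. That fit called 2.36% of all genes tested. The interaction was called for 0 of the 84 by edgeR, with 13 at an unadjusted p below 0.05, and for 2 (ern1 and gpt2) by DESeq2. Over all genes tested it was called for 0.449% by edgeR and 1.76% by DESeq2. Without the third wild-type libraries of both stages, edgeR called more of all genes tested, 11.3% at 6 hpf, 12.1% at 1 hpf and 3.28% for the interaction. The list genes called in that fit were not counted, so the edgeR counts of list genes hold for the main fit only. From 1 to 6 hpf, 29 list genes rose and 25 fell in wild type (64.3%), and 31 rose and 24 fell in MZznf598 (65.5%), beside 70.4% and 70% of all genes. The list genes as a whole thus changed with stage about as often as genes in general.

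The first list held the subunits of eIF2 and eIF2B and the regulatory subunits of the eIF2α phosphatase (11 tested). Its only call between genotypes was eif2b2, which encodes the β subunit of eIF2B. At 1 hpf eif2b2 was at 16.9, 21.7 and 25.1 CPM in wild type and at 7.04, 6.35 and 6.82 CPM in MZznf598. At 6 hpf it was at 9.22, 8.47 and 8.96 CPM in wild type and at 3.66, 4.52 and 2.57 CPM in MZznf598. No MZznf598 library reached the lowest wild-type library of its stage. The fall was 1.65 on the log2 scale at 1 hpf (log2 fold change -1.65, SE 0.19, edgeR adjusted p = 0.000139) and 1.31 at 6 hpf (log2 fold change -1.31, SE 0.23, edgeR adjusted p = 0.00343). The 6 hpf call was lost in 3 of 12 fits without 1 library (adjusted p up to 0.0178, without the third MZznf598 library of 6 hpf). From 1 to 6 hpf in wild type 5 of the 11 rose and 4 fell, where 70.4% of all genes tested changed. Genes with the symbol eif2s1, for the α subunit that the kinases phosphorylate, were found under 2 identifiers, of which ENSDARG00000005827 rose (log2 fold change 1.01) and ENSDARG00000052178 fell (log2 fold change -1.56), an example chosen after its values were seen.

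Of 7 tested activators and inhibitors of the kinases, 0 were called between genotypes by edgeR at either stage, with 3 at an unadjusted p below 0.05 at each. Over all genes tested edgeR called 3.51% at 6 hpf and 3.83% at 1 hpf. DESeq2 called 1 at 6 hpf (dele1) and 2 at 1 hpf (dnajc3b and prkra), beside 7.02% and 6.66% of all genes tested. At 1 hpf the edgeR log2 difference was 0.60 for dnajc3b (SE 0.13, adjusted p = 0.0135) and -0.73 for prkra (SE 0.17, adjusted p = 0.0190). The genotypes overlapped for neither gene at that stage. The gene with the lowest p at 6 hpf was dele1, named after its values were seen, whose product carries a mitochondrial stress signal to HRI in human cells. At 6 hpf dele1 was at 7.11, 8.21 and 11.3 CPM in wild type and at 16.3, 16.5 and 17.96 CPM in MZznf598, with no overlap. The log2 difference of dele1 was 0.94 (SE 0.22, edgeR adjusted p = 0.0176). Also below an unadjusted p of 0.05 at 6 hpf were impact and dnajc3b, named after their values were seen. They differed in opposite directions, by log2 -0.55 for impact (SE 0.16, edgeR adjusted p = 0.0583) and 0.33 for dnajc3b (SE 0.14, edgeR adjusted p = 0.179). The genotypes overlapped for neither of them at 6 hpf. For dele1 the 1 hpf difference was 0.52 (SE 0.18, edgeR adjusted p = 0.111), the levels being 40.5 ± 10.8 and 58.0 ± 1.57 CPM (SD, n = 3).

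Amino acid synthesis and uptake, the supply branch of the ATF4 program, had 20 tested genes and 1 call by edgeR between genotypes, gpt2, which encodes the mitochondrial alanine aminotransferase. At 6 hpf gpt2 was at 430, 538 and 424 CPM in wild type and at 675, 679 and 711 CPM in MZznf598. It was 1.48-fold higher there (log2 fold change 0.57, SE 0.09, edgeR adjusted p = 0.00142). At 1 hpf, where the levels were 461 ± 13.0 and 435 ± 4.72 CPM (SD, n = 3), the log2 difference was -0.09 (edgeR adjusted p = 0.705). The interaction, 0.66, had an edgeR adjusted p of 0.0192 and was called by DESeq2 (adjusted p = 7.60e-05) and by edgeR without the third wild-type libraries of both stages (0.60, adjusted p = 0.00319). DESeq2 also called got1, the cytosolic aspartate aminotransferase, at 6 hpf, where the edgeR log2 difference was 0.38 (SE 0.10, adjusted p = 0.0363) with no overlap of the genotypes. In the opposite direction, slc7a11, named after its values were seen, differed by log2 -2.15 at 6 hpf (SE 0.55, edgeR adjusted p = 0.0292). Its genotypes did not overlap, and neither tool called it. For gpt2, leaving out the third MZznf598 library of 6 hpf ended the 6 hpf call (edgeR adjusted p = 0.0114). The median over the list was 0.00 at 6 hpf and -0.03 at 1 hpf, with 10 and 8 of 20 genes above 0.

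Of the 14 tested genes for tRNA charging, cars1, which encodes the cysteinyl-tRNA synthetase, was called at 6 hpf. It was at 107, 98.1 and 105 CPM in wild type and at 72.9, 76.0 and 74.4 CPM in MZznf598, with no overlap. The log2 fold change was -0.48 (SE 0.08, edgeR adjusted p = 0.00365), and the call was lost in 4 of 12 fits without 1 library (adjusted p up to 0.0211, without the first MZznf598 library of 6 hpf). At 1 hpf the log2 difference was -0.35 (edgeR adjusted p = 0.0187), which DESeq2 called (adjusted p = 0.00106), as did edgeR without the third wild-type libraries of both stages (-0.34, adjusted p = 0.00577). The median over the list was -0.13 at 6 hpf, with 4 of 14 genes above 0.

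The 16 tested stress transcription factors and effectors, among them atf3, cebpb, sesn2 and ddit4, held 0 calls between genotypes by edgeR and by DESeq2, with 1 gene at an unadjusted p below 0.05 at 6 hpf and 3 at 1 hpf. Over all genes tested edgeR called 3.51% at 6 hpf and 3.83% at 1 hpf, and DESeq2 7.02% and 6.66%. At such shares 0 calls among 16 genes are not read as a result about the list. Their median log2 difference was -0.07 at 6 hpf and -0.20 at 1 hpf, with 8 and 5 genes above 0. Over all genes tested the median was -0.01 and 0.00. Of the names searched for this list, chac1, fgf21 and both entries of stc2 were removed by the filter on low counts. The name gdf15 was not matched, so nothing can be said here on any of these genes. In the unfolded protein response outside PERK (16 tested), ern1 was called at 1 hpf. It encodes IRE1, the ER sensor that splices the mRNA of xbp1. At 1 hpf ern1 was at 58.1, 57.7 and 68.6 CPM in wild type and at 29.2, 29.7 and 28.6 CPM in MZznf598, with a log2 fold change at that stage of -1.07 (SE 0.10, adjusted p = 3.08e-05 by edgeR). The levels at 6 hpf were 58.3, 60.2 and 65.8 CPM in wild type and 46.9, 48.9 and 41.6 CPM in MZznf598. The groups did not overlap at either stage, and the 6 hpf difference of -0.42 had an edgeR adjusted p of 0.0236. DESeq2 called this 6 hpf difference (adjusted p = 0.00593), as did edgeR without the third wild-type libraries of both stages (log2 fold change -0.37, adjusted p = 0.00680). The ern1 interaction of 0.65 had an edgeR adjusted p of 0.0489, and it was called by DESeq2 (0.00456) and without those libraries (0.00562). The remaining ER sensor, atf6, named after its values were seen, differed by log2 0.04 at each stage (95% interval -0.14 to 0.21 at both). Both entries of dnajb9, also named after their values were seen, were lower in MZznf598 at 1 hpf with no overlap. Each differed by log2 -1.59 (edgeR adjusted p = 0.0725 and 0.0347), and neither tool called them. Of the 16 genes of this list, 8 were above 0 at 1 hpf.

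**Figure D4:**
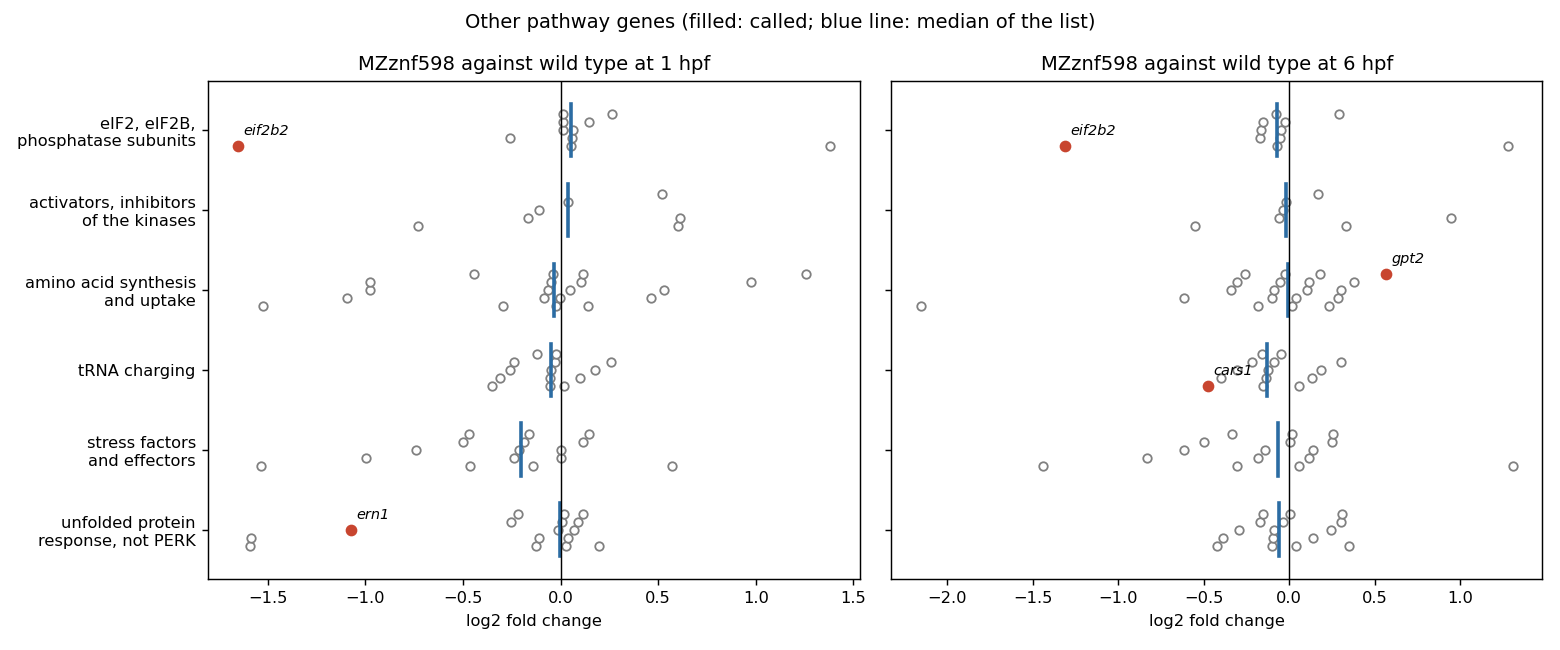
Log2 fold change between MZznf598 and wild type of the 84 tested genes of 6 pathway lists, at 1 hpf (left) and 6 hpf (right). Each dot is a gene, filled where called, and the blue line is the median of its list. Called genes are eif2b2 (-1.65) and ern1 (-1.07) at 1 hpf and eif2b2 (-1.31), cars1 (-0.48) and gpt2 (0.57) at 6 hpf. The medians of the lists run from -0.20 to 0.05 at 1 hpf and from -0.13 to -0.005 at 6 hpf.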

How the data were processed

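RNA of 12 libraries was measured. After removal of ribosomal RNA, the authors sequenced stranded libraries from 1 end. Trimmed reads were mapped with STAR (GRCz11), those with a unique position and at most 1 mismatch were kept, and whole-number counts per Ensembl gene from featureCounts were deposited. Neither the release of the annotation nor the strand setting is given in the sources used here. Reads shared by near-identical copies are lost by this rule, and a strain with more mismatches loses reads.

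Genes over 1 CPM in at least 3 of 12 libraries were tested (15829, with 9603 removed) in 1 quasi-likelihood model with 4 group means (R 4.3.3, edgeR 4.0.16, TMM, robust option, 8 residual degrees of freedom), checked on simulated data. Comparisons were MZznf598 against wild type at each stage, their difference (the interaction, 6 hpf minus 1 hpf), and 6 against 1 hpf in each genotype. Tests were 2-sided, adjusted by Benjamini-Hochberg over all genes tested, and called at an adjusted p below 0.01. SE is the absolute log2 fold change over the square root of F, and intervals are 95% by the t distribution. These intervals are approximate, and where a group held few counts they can be narrower than counting error alone. For atf4b from 1 to 6 hpf in wild type the interval was 5.12 to 7.90 on the log2 scale. The counting interval of that ratio, 23.7 to 5471, was wider on both sides.

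Named genes were all members, znf598, list genes called between genotypes, the 3 genes most correlated with atf4a, and others said to be chosen after their values were seen. The members and lists were chosen with earlier results of these data known. Alternatives were RLE factors, library totals, no filter, DESeq2 1.42.0, an adjusted p below 0.05, replicate blocks, no robust option, the 6 libraries compared, and each library left out. Leaving out the third wild-type library of both stages was added after seeing the data. Same-numbered libraries of 1 genotype deviated together across stages (r across genes 0.133 to 0.209 in 6 pairs, against -0.17 to 0.07 for different numbers). Between genotypes at a stage, r was -0.09 to 0.07 for the same number and -0.15 to 0.17 for different numbers. The labels do not say that the numbers pair libraries, so pairing enters only among the alternatives.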

Additional observations from a re-analysis of the deposited data

How the results depend on the processing

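At 6 hpf the number of members called between genotypes was 1 rather than 2 with library totals alone, with the replicate block by number and with only the 6 libraries compared. These fits called 3.37%, 2.8% and 2.36% of all genes tested, beside 3.51% in the main fit. With each library left out the number was 1 to 2 (1.56% to 5.37% of all genes tested). It was 3 with DESeq2 and at an adjusted p below 0.05, where eif2ak3 was added, and these settings called 7.02% and 8.38% of all genes tested. At 1 hpf it was 2 with DESeq2 (6.66% of all genes tested) and 3 at an adjusted p below 0.05 (7.77% of all). With each library left out it was 1 to 2 (2.02% to 5.65% of all). Without the third wild-type libraries of both stages the number stayed at 2 at 6 hpf and at 1 at 1 hpf. That fit called 11.3% and 12.1% of all genes tested at these stages. The trib3 difference at 6 hpf had an adjusted p of 0.0131 with the replicate block by number and 0.0171 with library totals. Pairing within a genotype could be fitted only for the stage comparisons and the interaction, and among the members it ended the asns call in wild type alone. Library totals moved the median of all genes from 1 to 6 hpf in wild type to -0.55 and the split of calls from 5783 up and 5366 down to 4290 up and 7402 down, and with DESeq2 601 genes were called up and 510 down at 6 hpf, where edgeR called 278 and 277.

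Counted over every member, comparison and alternative fit, 35 values changed sign and 895 kept both sign and call. A comparison of 1 member can be counted in several fits. Of the 35, 0 were called in either fit. With library totals the ddit3 difference at 6 hpf was -0.011. Without the third wild-type libraries of both stages the atf4b difference at 6 hpf was 0.022, the asns difference at 1 hpf 0.16 and the ddit3 interaction 0.26. With each library left out in turn, the log2 differences of asns ran from -0.12 to 0.16 at 1 hpf, from -0.19 to 0.014 at 6 hpf and from -0.24 to 0.044 for the interaction. Those of ddit3 ran from -1.19 to 1.58 at 1 hpf, from -0.22 to 0.32 at 6 hpf and from -1.57 to 1.20 for the interaction. The ranges were -0.18 to 0.42 for atf4a and -0.20 to 0.30 for eif2ak1 at 1 hpf, -0.15 to 0.091 for atf4b and -0.26 to 0.16 for eif2ak2 at 6 hpf, and -0.50 to 0.10 for atf4a, -0.25 to 0.23 for eif2ak3 and -0.066 to 0.38 for nupr1a in the interaction. The cause was not tested. Depth limits eif2ak2, atf4b and ddit3 at 1 hpf, where a group held 1 to 10 counts, and nupr1b, where no difference was detectable at this depth. For eif2ak4, listed at 0 throughout, no statement can be made.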

Other observations

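Genes next to the members in the RefSeq order (assembly GRCz12tu, 5 on each side, looked at after the members' values were seen) were called between genotypes at either stage beside trib3, eif2ak3 and nupr1a. Beside trib3 this held for 3 of 6 tested neighbours, beside eif2ak3 for 1 of 7 and beside nupr1a for 1 of 6, and over all genes tested for 969 of 15829 (6.12%). The numbers are too small for a comparison. Whether the mutant line and the wild-type strain differ in sequence around these genes was not tested.

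Adjacent to trib3, maf1a, whose product represses RNA polymerase III in yeast and mammals, was lower in MZznf598 at 6 hpf (149 ± 6.04 CPM in wild type, 103 ± 4.79 CPM in MZznf598, mean ± SD, n = 3, log2 fold change -0.53, edgeR adjusted p = 0.000714). A few genes away, chia.2 had 0, 0 and 1 counts in wild type and 116, 142 and 99 counts in MZznf598 at 1 hpf (edgeR adjusted p = 2.44e-05). Its neighbour ovgp1 had 34, 23 and 33 counts in wild type and 0, 2 and 2 counts in MZznf598 at 1 hpf (edgeR adjusted p = 0.00211), so that these neighbours differed in opposite directions. Adjacent to eif2ak3, rpia, which encodes ribose 5-phosphate isomerase, was higher in MZznf598 at 6 hpf (23.0 ± 7.85 CPM in wild type, 45.5 ± 6.66 CPM in MZznf598, mean ± SD, n = 3, log2 fold change 0.97, edgeR adjusted p = 0.00787), the same direction as the uncalled difference of eif2ak3. Near nupr1a, zgc:101699 had 19, 22 and 11 counts in wild type and 4, 1 and 2 counts in MZznf598 at 6 hpf (log2 fold change -2.74, edgeR adjusted p = 0.00966).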
